A study of Mus musculus with 2 samples.

Results

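Peaks of the DNA repair enzyme Tdg were examined at the genes of 9 transcription factors that support or mark the pluripotent state of mouse embryonic stem cells. These are Pou5f1, Nanog, Sox2, Klf4, Esrrb, Prdm14, Tbx3, Zfp42 and Klf2. Peaks were taken by position alone, as all those that overlap a gene span or the 20 kb on either side of it by at least 1 bp. This gave 108 of the 72970 peaks of the list, and each of the 9 loci held at least 2. The list comes from ChIP-seq of E14 cells, a mouse embryonic stem cell line, with the label Bio-Tdg (1 library), in which Tdg carries a tag that is biotinylated and pulled down on streptavidin. A second library, from BirA cells, is the mock (1 library), and no file of it was analysed here. No treatment, genotype or time is given in the labels for either library, and they do not say whether the Bio-Tdg cells also carry BirA, how the tagged Tdg is driven or whether the line is 1 clone. With 1 library no value has a replicate error and no test between groups was possible. The file holds no expression values, so the cell type could not be checked against its markers. Positions are in the mouse build mm9.

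Tdg, thymine DNA glycosylase, cuts 5-formylcytosine and 5-carboxylcytosine out of DNA. Tet enzymes make both by oxidising methylcytosine, mostly at CpG sites, and repair after the cut leaves an unmethylated cytosine. Pou5f1 (Oct4), Sox2 and Nanog bind each other's regulatory DNA and keep the network active. Klf4, Klf2, Esrrb, Tbx3 and Prdm14 support it in the naive state, and Zfp42 (Rex1) is its usual marker gene. Well-known enhancers lie close upstream of Pou5f1 and of Nanog and on both sides of Sox2. Their positions in mm9 were not used here.

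Promoter sequences of 7 of the 9 genes were found in RefSeq by symbol, on GRCm38.p6. Prdm14 and Tbx3 had no entry. For 4 of them the 250 bases before the most upstream listed start are shown, read 5′ to 3′ on the strand of the gene, because they span the range of CpG content seen at the loci and carry very different peaks. Capitals mark each CpG.

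Klf4 (chromosome 4, minus strand): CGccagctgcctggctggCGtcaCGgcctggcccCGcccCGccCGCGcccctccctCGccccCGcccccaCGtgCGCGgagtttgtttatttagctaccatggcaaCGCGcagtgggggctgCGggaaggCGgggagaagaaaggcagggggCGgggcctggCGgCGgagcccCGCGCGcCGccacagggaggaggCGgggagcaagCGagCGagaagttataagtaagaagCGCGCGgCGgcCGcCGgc

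Pou5f1 (chromosome 17, plus strand): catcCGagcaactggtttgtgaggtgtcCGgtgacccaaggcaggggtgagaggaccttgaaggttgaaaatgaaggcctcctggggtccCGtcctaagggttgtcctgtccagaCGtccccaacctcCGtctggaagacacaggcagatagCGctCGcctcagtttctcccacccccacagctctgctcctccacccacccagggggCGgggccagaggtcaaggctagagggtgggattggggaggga

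Esrrb (chromosome 12, plus strand): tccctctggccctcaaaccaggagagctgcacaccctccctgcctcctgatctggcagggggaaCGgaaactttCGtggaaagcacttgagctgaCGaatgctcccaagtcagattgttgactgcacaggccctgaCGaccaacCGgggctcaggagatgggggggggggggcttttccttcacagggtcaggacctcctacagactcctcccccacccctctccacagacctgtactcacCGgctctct

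Nanog (chromosome 6, plus strand): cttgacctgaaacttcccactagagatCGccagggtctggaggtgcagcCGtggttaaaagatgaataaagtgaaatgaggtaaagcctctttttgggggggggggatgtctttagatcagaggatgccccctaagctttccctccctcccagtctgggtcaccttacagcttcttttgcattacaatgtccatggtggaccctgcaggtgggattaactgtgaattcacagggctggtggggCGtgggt

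These stretches held 32 CpG at Klf4, 8 at Pou5f1, 6 at Esrrb and 3 at Nanog. They are taken up again beside the peaks over the starts.

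Tdg peaks lay over or just beside the start of all 9 genes. The start coordinate lay inside a peak at 8 of the 9 genes, while peaks covered 3.24% of the bases of chromosomes 1 to 19. The share of all gene starts inside a peak needs an mm9 annotation and was not analysed here, so the count of 8 cannot be set against other promoters. Prdm14 was the exception, and its nearest peak began 194 bp downstream of the start. All 9 genes had a peak within 1 kb of the start. The nearest such peaks had the stretch from 194 to 411 bp downstream of the start in common. This stretch was defined by that overlap, and its ends are the near edge of the Prdm14 peak and the far edge of the Zfp42 peak.

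Coverage by peaks fell off on both sides. Over the 9 loci, 66.04% of the bases within 1 kb upstream of the start and 87.5% of those within 1 kb downstream lay inside peaks. Between 1 and 2 kb the shares were 48.5% upstream and 70.0% downstream. From 2 to 5 kb they were 23.9% and 27.5%, and from 10 to 20 kb they were 14.7% and 19.2%. The outermost distances thus still held more peak sequence than the 3.24% of the autosomes, and the downstream share was the larger in all 5 distance ranges.

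**Figure D1:**
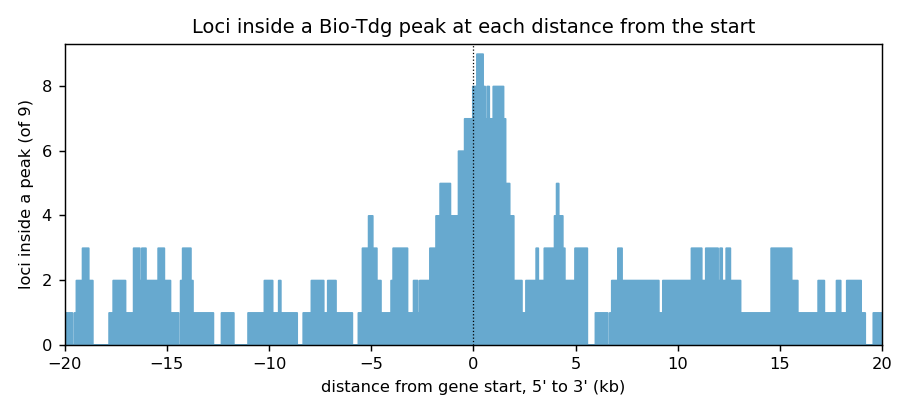
Number of the 9 loci that lie inside a Bio-Tdg peak (vertical axis) at each distance from the gene start, read 5′ to 3′ (horizontal axis, kb, in steps of 100 bases). The count reaches 9 just downstream of the start and is 5 or lower beyond 2 kb on either side.

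The peaks over the starts ranged in width from 561 to 4978 bp. Each peak has the score that the authors deposited, which in MACS 1.4 output is −10 times the log10 of its p-value. The number of reads in a peak was read back from score and width. Above a score of 3077 the p-value is smaller than double-precision numbers hold at full precision. Such peaks were therefore not ranked by score and have no read number. They are called ceiling peaks below.

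At Pou5f1, which encodes the POU factor Oct4, the start peak ran from 2675 bp upstream to 2302 bp downstream (chr17:35640302-35645279) and was 4978 bp wide. At Klf4, a Krüppel-like zinc finger factor, it ran from 1839 bp upstream to 3128 bp downstream (chr4:55542212-55547179) and was 4968 bp wide. At Tbx3, a T-box factor, it reached from 2970 bp upstream to 1959 bp downstream (chr5:120117708-120122637), a width of 4930 bp. At Sox2, the HMG-box partner of Oct4, it reached from 2185 bp upstream to 1576 bp downstream (chr3:34546742-34550503), a width of 3762 bp. These 4 were all ceiling peaks and all wider than 3 kb.

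The other 4 start peaks were narrower and their reads could be recovered. Klf2, another Krüppel-like factor, had a start peak of 2510 bp with 189 reads (chr8:74842202-74844711), the most of any member peak with a read number. The homeobox gene Nanog had one of 2172 bp with 105 reads (chr6:122656773-122658944). At Zfp42, a zinc finger gene, the start peak was 880 bp wide with 47 reads (chr8:44391952-44392831), and at Esrrb, an orphan nuclear receptor gene, 561 bp with 23 reads (chr12:87702058-87702618). The Esrrb peak was close to the weakest of the list, in which no peak had fewer than 21 recovered reads. Prdm14, whose PR-domain protein represses DNA methyltransferase genes, had 22 reads in the 549 bp peak nearest to its start (chr1:13116502-13117050).

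Ceiling peaks made up 2.78% of the whole list. Among the 108 member peaks they numbered 8, or 7.41% (exact binomial 95% interval 3.25 to 14.1%), and 4 of these 8 were start peaks. Peaks wider than 3 kb made up 1.92% of the list and were 6 of 108 members, 5.56% (2.07 to 11.7%). Away from the starts, ceiling peaks were 4 of 100 and wide peaks 2 of 100. These intervals cover counting error only and take peaks as independent, which neighbouring peaks are not, and the differences were not tested.

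**Figure D2:**
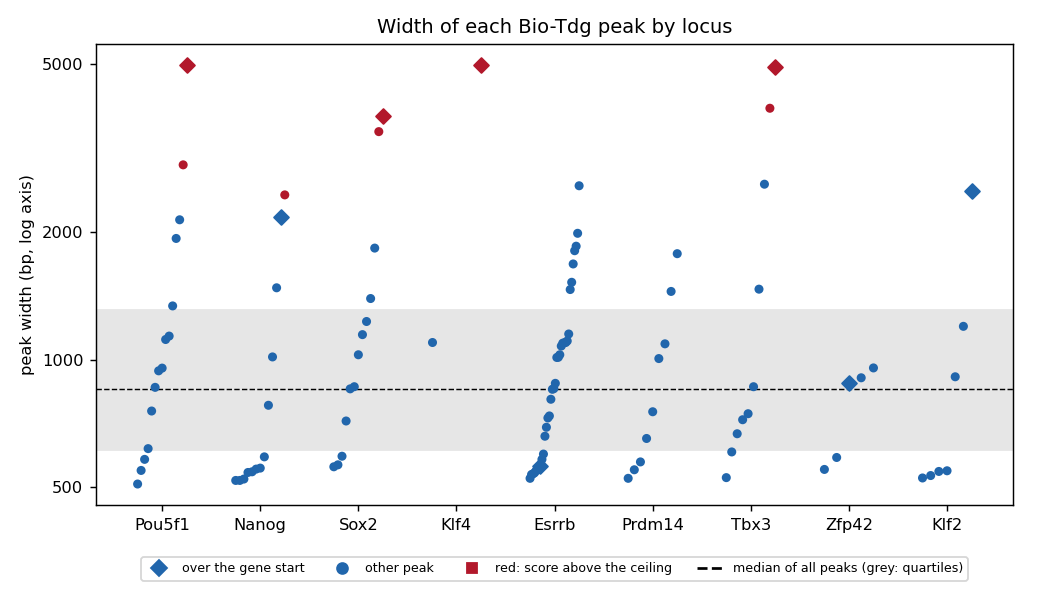
Width of each of the 108 member peaks (vertical axis, bp, log scale) by locus, ordered by width within a locus and with the peaks over the gene start as diamonds. The start peaks of Pou5f1, Klf4 and Tbx3 lie between 4930 and 4978 bp, and those of Zfp42 and Esrrb lie at 880 and 561 bp, close to and below the median of all peaks, 850 bp.

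Promoter CpG content and start peak did not follow the same order. The counts here are for 300 bases, from 250 before to 50 after the most upstream listed start. RefSeq lists 2 starts for Pou5f1, Nanog and Esrrb, and only the first was used. Klf4 had 40 CpG, and 3.79% of 27025 RefSeq promoters had at least that many. Klf2 had 32 CpG and Sox2 had 27, and 9.27% and 15.4% of promoters had as many or more. Pou5f1 and Zfp42 each had 11, Esrrb had 7 and Nanog 4, near or below the median promoter, which had 7.

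The 3 genes with over 20 CpG all had start peaks of 2510 bp or wider. The 4 with fewer had widths from 561 bp at Esrrb to 4978 bp at Pou5f1. Pou5f1 and Zfp42 thus had the same 11 CpG and start peaks of 4978 and 880 bp. Nanog, with the fewest CpG, had a wider start peak than Esrrb and Zfp42. With 7 genes no relation was tested.

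**Figure D3:**
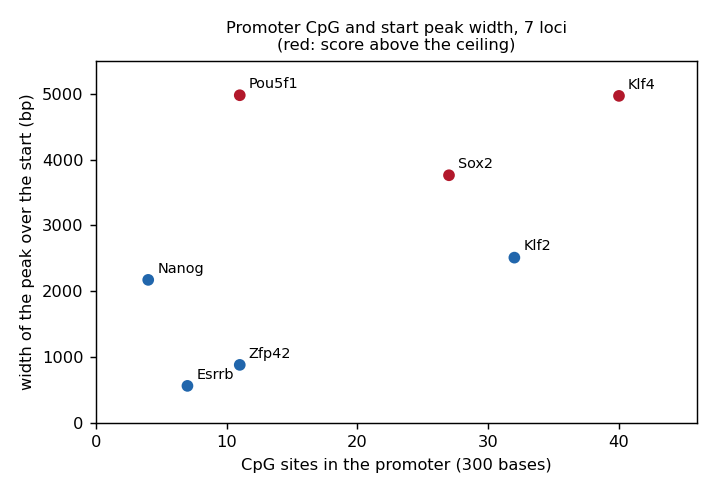
Number of CpG in the 300 bases around the start (horizontal axis) against the width in bp of the peak over the start (vertical axis) for the 7 genes with a RefSeq promoter. Pou5f1 at 11 CpG and Klf4 at 40 CpG lie at 4978 and 4968 bp, while Zfp42, also at 11 CpG, lies at 880 bp.

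Short motifs were searched as exact letters on both strands of these 300 bases, so variants of a site were not counted. The GC box GGGCGG, which itself holds a CpG, was present in 5 of the 7 promoters (Pou5f1, Sox2, Klf4, Zfp42 and Klf2) and in 35.9% of all promoters. CCAAT was present in 3 (Pou5f1, Sox2 and Zfp42), against 38.0% of all. The octamer ATTTGCAT, a form of the site that Oct4 reads, was found at Zfp42 only, with 1.77% of all promoters. Near matches, such as TTTTGCAT at Nanog, are not in this count, so it does not show that the other promoters lack an Oct4 site. ACAATG, a core that Sox proteins read, was found at Nanog and Esrrb, with 12.8% of all. GGGTGTGG, a Klf-type core, was found at Zfp42 only, with 3.60% of all. TATAAA and the Esrrb core TCAAGGTCA were in none of the 7, and in 14.2% and 0.407% of all promoters. None of these motifs contains another.

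Beyond the starts the loci differed in how many peaks they held and where. Of all windows of 47.1 kb, the median length of the member windows, into which chromosomes 1 to 19 were divided, 44.0% held at least 1 peak and 3.11% held at least 9. All 9 loci held a peak. Of the 8 loci other than Esrrb, whose windows were 42.5 to 53.9 kb long, 5 held at least 9. Pou5f1 had 15 peaks, Nanog and Sox2 13 each, Tbx3 10, Prdm14 9, Klf2 7, Zfp42 5 and Klf4 2. Esrrb, by far the longest gene, had 34 over a window of 200.5 kb. Among windows of that length, 2.16% held 34 peaks or more.

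Pou5f1 stood highest by this measure, since 0.255% of the 47.1 kb windows held 15 peaks or more. For the 13 peaks of Nanog and Sox2 the share was 0.66%. It was 10.6% for Zfp42 and 28.5% for Klf4. The member windows were placed on genes and the others were not, so the ranking only describes the list.

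**Figure D4:**
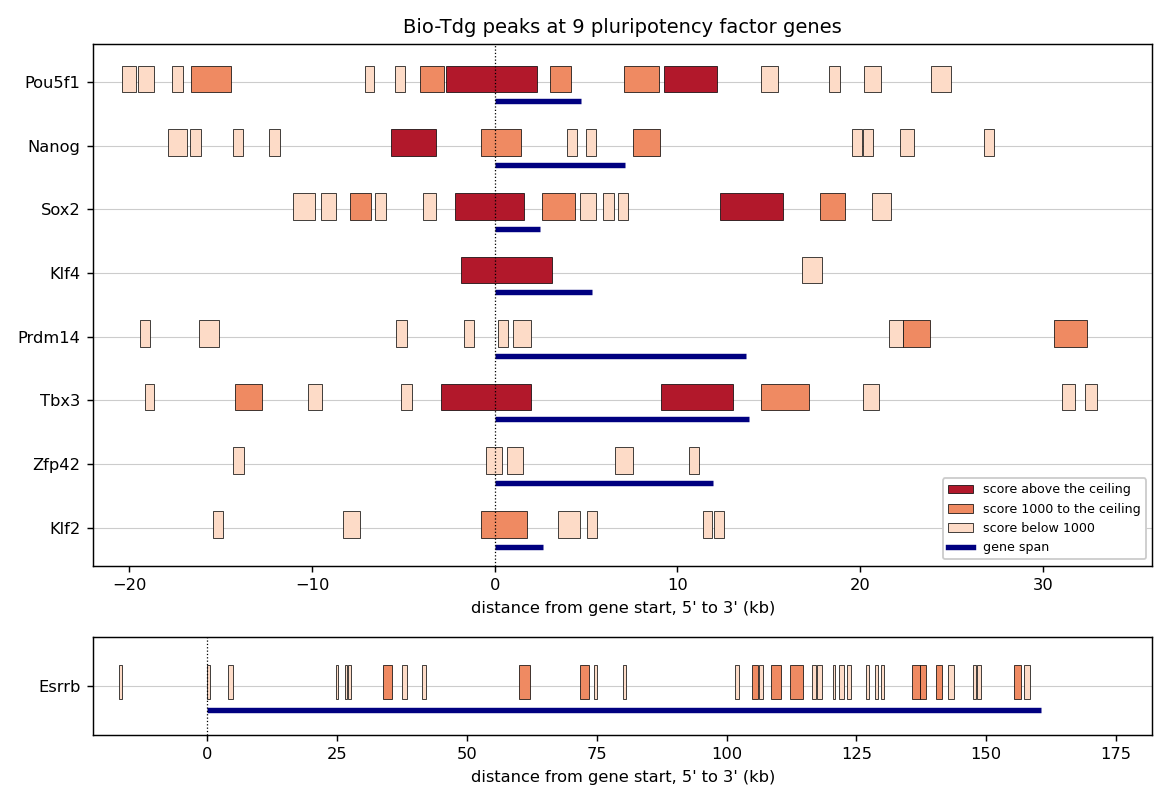
Every Bio-Tdg peak of the 9 loci as a box at its distance from the gene start, 5′ to 3′ (horizontal axis, kb), with gene spans in blue below and Esrrb on a longer axis. Dark red boxes are ceiling peaks, which lie over the start at Pou5f1, Sox2, Klf4 and Tbx3 and also away from it at Pou5f1, Nanog, Sox2 and Tbx3.

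In peaks per megabase the order was Pou5f1 with 335 (exact 95% Poisson interval 188 to 553), Sox2 with 306 (163 to 524), Nanog with 276 (147 to 472), Tbx3 with 185 (88.9 to 341), Esrrb with 169.6 (117 to 237), Prdm14 with 167 (76.6 to 318), Klf2 with 164 (66.03 to 338), Zfp42 with 96.3 (31.3 to 225) and Klf4 with 44.1 (5.34 to 159). The interval of each gene overlapped that of the next in this order. Only the interval of Klf4 failed to reach those of Pou5f1 and Sox2. All 9 loci together had 185 peaks per Mb (152 to 224), against 29.995 on chromosomes 1 to 19, a ratio of 6.18. Counting error alone is covered, and since peaks cluster the intervals are too narrow.

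Several loci also had dense surroundings. In the sequence from 20 to 200 kb outside each gene span, Nanog had 133 peaks per Mb, Pou5f1 128, Klf2 83.3, Tbx3 80.6 and Esrrb 75. Sox2 had 44.4, Prdm14 38.9, Klf4 33.3 and Zfp42 13.9. The locus was denser than these surroundings at 9 of 9 genes, by 1.32-fold at Klf4 to 6.93-fold at Zfp42 and 6.89-fold at Sox2, with a median of 2.30-fold. The ratio of Zfp42 rests on 5 peaks in the locus and 5 around it, and that of Klf4 on 2 and 12. For Sox2 the counts were 13 and 16. The size and order of these ratios depended on how far the surroundings reached. Out to 500 kb they ran from 1.48-fold at Esrrb to 15.4-fold at Zfp42, where the surroundings held 6 peaks. Sox2 had 10.9, Tbx3 4.34, Nanog 3.78 and Klf2 2.97. Out to 100 kb the ratios ran from 1.64-fold at Klf2 to 5.44-fold at Sox2, with 2.68 at Prdm14 in place of 4.31. With the limit of 200 kb the intervals of locus and surroundings were apart at 4 genes, Pou5f1, Sox2, Esrrb and Prdm14, and overlapped at the other 5. Pou5f1 lies on chromosome 17, which had 38.5 peaks per Mb over its length, so its locus had 8.71 times the density of its chromosome. For Sox2 on chromosome 3 this ratio was 15.5, and for Klf4 on chromosome 4 it was 1.23.

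**Figure D5:**
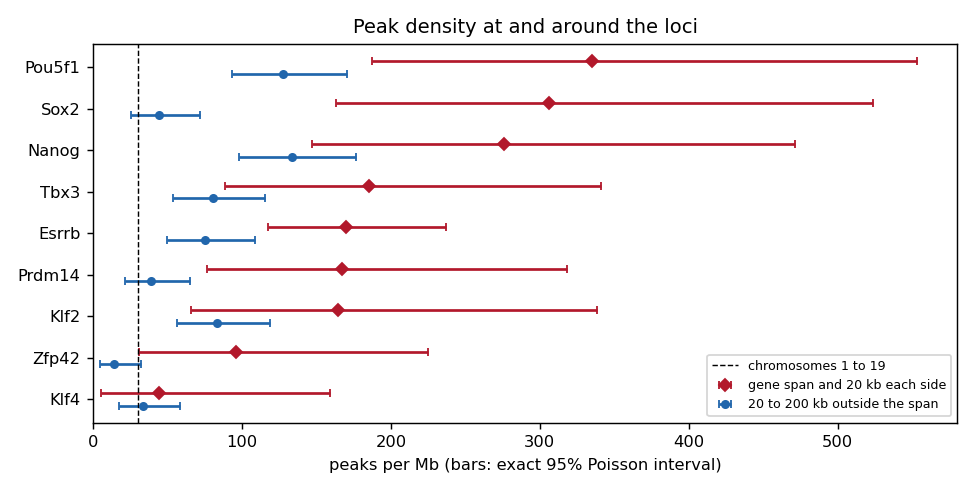
Peaks per Mb (horizontal axis) in each locus (red diamonds) and in the sequence 20 to 200 kb outside the gene span (blue circles), with exact 95% Poisson intervals as bars and the value of chromosomes 1 to 19 as a dashed line. All 9 red points lie to the right of their blue points, with the smallest distance at Klf4.

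Pou5f1 had Bio-Tdg peaks on both flanks. Peaks less than 1 kb apart joined into a run of 4 peaks that spanned 9645 bp, from 5469 bp upstream to 4175 bp downstream of the start. In it the start peak was preceded by one of 1340 bp with 90 reads, from 4098 to 2759 bp upstream, separated from it by 83 bp. A peak of 1137 bp inside the gene held 101 reads. Its 88.8 reads per kb were the highest read density among the member peaks with a read number, which leaves out the ceiling peaks. A second ceiling peak of 2889 bp lay downstream of the gene, from 9262 to 12150 bp after the start (chr17:35652239-35655127). Upstream, a peak of 2142 bp with 131 reads lay between 16604 and 14463 bp before the start. The gene table, on GRCm38.p6, lists Tcf19 as the next protein-coding gene downstream and H2-Q10 upstream, but which peaks fall on them was not determined in mm9.

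At Nanog the strongest peak lay upstream of the start. The ceiling peak of this locus was 2453 bp wide and ran from 5660 to 3208 bp upstream (chr6:122651847-122654299), against 105 reads in the start peak. A peak of 1479 bp with 116 reads lay from 7587 to 9065 bp downstream of the start, just past the end of the gene. Both peaks inside the gene held 22 reads. Of the 13 peaks, 8 had scores under 500, and the median of the 12 with a read number was 22.5 reads. Dppa3, another gene of the pluripotent state, is the next protein-coding gene upstream in the gene table, and Slc2a3, a glucose transporter gene, is the next downstream.

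Sox2 had peaks packed on both sides of its single-exon gene. A run of 5 peaks spanned 9483 bp, from 2185 bp upstream to 7297 bp downstream of the start. A second run of 4 peaks covered 11046 to 5976 bp upstream, with 83 reads in its strongest peak. Downstream, a peak of 1836 bp with 109 reads began 2559 bp after the start. A ceiling peak of 3462 bp lay from 12341 to 15802 bp downstream (chr3:34561268-34564729), almost as wide as that over the start. Peaks covered 42.4% of the Sox2 window and 46.1% of the Pou5f1 window, the largest shares of the 9.

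Klf4 had the fewest peaks and one of the broadest. Besides the start peak of 4968 bp its window held 1 peak, of 1103 bp with 64 reads, 16813 to 17915 bp downstream of the start. No peak lay in its upstream flank. The next peaks outside the window were 25884 bp beyond it downstream and 98235 bp beyond it upstream.

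Tbx3 had 2 ceiling peaks. The one away from the start was 3932 bp wide and lay inside the gene, from 9088 to 13019 bp after the start (chr5:120129766-120133697). A peak of 2600 bp with 156 reads followed past the end of the gene. The 4 upstream peaks held 22, 86, 39 and 25 reads in order from far to near, so only the one between 14226 and 12759 bp upstream had a score above 1000.

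Esrrb had 34 peaks and no ceiling peak, and 32 of them lay inside the gene span away from the start. They were unevenly spread along its 160.5 kb. The first 100 kb held 12 peaks by midpoint, or 120 per Mb, and the remaining sequence held 21, or 347 per Mb. The most read-rich peak, of 2578 bp with 158 reads, lay 112182 to 114759 bp after the start (chr12:87814252-87816829). The longest distance between neighbouring peaks, 21.1 kb, lay just before the dense part, from 80.6 to 101.7 kb. A peak of 1990 bp with 129 reads lay 60073 to 62062 bp after the start (chr12:87762143-87764132), against the 23 reads of the peak at the start itself. RefSeq lists 2 Esrrb starts on GRCm38.p6, the second inside the gene, and its place in mm9 was not determined.

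Prdm14, Zfp42 and Klf2 had no ceiling peak, and each had at most 2 peaks with a score of 1000 or more. At Prdm14 the strongest were 2 peaks past the end of the gene, with 105 reads in 1781 bp (chr1:13084853-13086633) and 94 reads in 1450 bp. The 3 peaks within 2 kb of its start held 22, 47 and 26 reads. Zfp42 was the one locus with no score of 1000 or more. Its 5 peaks had between 23 and 50 reads, with a median of 43 against 42 in the whole list. Its strongest was a peak of 956 bp with 50 reads, 6605 to 7560 bp after the start. At Klf2 the start peak held 189 reads, the next strongest, 3480 to 4678 bp downstream, held 67, and 4 of the other 5 held 22 or 23.

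Taken singly, the member peaks had values close to those of the whole list. A score of at least 1000 was reached by 28.2% of all peaks and by 32 of the 108 member peaks, 29.6% (exact binomial 95% interval 21.2 to 39.2%). The median was 41 reads over the 100 members with a read number and 42 over all peaks with one. The median width was 863 against 850 bp, and the median read density 48.3 against 49.5 reads per kb. By place, 6 of the 8 start peaks had a score of at least 1000, 12 of 41 elsewhere in the gene spans, 9 of 30 in the downstream flanks and 5 of 29 in the upstream flanks. Median reads were 27.5 in the upstream and 43 in the downstream flanks. The 8 start peaks had a median width of 3136 bp, against 854 bp for the other 100 members. These shares and medians were not tested.

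The edges of the windows, set at 20 kb, cut through continuous fields of peaks at some loci. The 20 member peaks that lay within 5 kb inside an edge had a median width of 768 bp. Outside, only the nearest peak to each edge was taken, and the 7 of these within 5 kb had a median width of 981 bp. The 20 and the 7 are therefore not counts of like sets. At Pou5f1 the next peaks lay 1241 and 1352 bp outside, with 46 and 55 reads. At Nanog a ceiling peak of 6090 bp, wider than any member, began 4998 bp outside on the downstream side, towards Slc2a3.

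Of 20 other pluripotency genes that were listed by name, Dppa3 and Gdf3 were found among the 2 nearest protein-coding genes on either side of a member, both next to Nanog. Without mm9 positions their peaks were not counted. RefSeq promoters of 10 of the 20 had 2 to 28 CpG, with a median of 14.5, against 4 to 40 and a median of 11 for the 7 member promoters.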

How the data were processed

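The file analysed was the list of Bio-Tdg peaks that the authors deposited, with a score for each peak. Groups follow the ChIP label. Per the submitters' processing notes, CASAVA 1.8, Bowtie 0.12.7, MACS 1.4.1 and mm9 were used, with no role given. Not given in the sources used here are the calling threshold, the control, and the treatment of reads that match several places. The depth of the library is unknown.

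Gene spans in mm9 came with the choice of the 9 genes, which, like the lists and settings, was made with earlier results of these data known. The spans could not be checked against an mm9 annotation, and the outer 5′ end of each was taken as the start. Strands came from RefSeq, and for Prdm14 and Tbx3 from general knowledge. All 9 genes are named, with the peak over the start and the peaks of highest score or most reads in each locus. Other peaks are named for their position and were chosen after their values were seen. Reads per peak were recovered as the whole number whose Poisson probability, at one common rate (fitted, 1.13 per kb) over a width of at least 370 bp, gives the score within 0.01. This succeeded for 70938 of 72970 peaks, which are all except the ceiling peaks, and was tested on simulated data. The scores of these 70938 peaks thus followed from reads and width at the common rate. They held no background that varied from place to place, whether local or from the mock. Whether background was raised at the 9 loci was not tested. Windows were laid end to end from the first peak of each autosome. Intervals cover counting error of peaks only, since there was 1 library, and they take peaks as independent. The surroundings and the windows of own length were added after seeing the data. Software was matplotlib 3.10.9, pandas 2.3.3, scipy 1.17.1 and numpy 2.4.6 under Python 3.11.15.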

Additional observations from a re-analysis of the deposited data

How the results depend on the processing

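Of 41 recomputed values, 29 stayed within 1.5 times a main count or within the 95% interval of the main value, and 12 moved. The number of member peaks was 167 with a 50 kb flank, 49 with no flank, 61 for scores from 500 up and 32 for scores from 1000 up, all of which follow from the setting. Density was 149 peaks per Mb with a 50 kb flank, 127 after merging peaks less than 1 kb apart, and 105 and 54.9 with those score limits. The share of peaks past a score was 56.5% at 500 and 10.2% at 2000 in place of 1000. Median reads were 67 with the limit of 500 and 102.5 with that of 1000. The number of starts inside a peak was 7 with the limit of 500, without Esrrb, and 6 with 1000, without Esrrb and Zfp42. Loci were denser than their surroundings at 9 of 9 genes with surroundings out to 100 or 500 kb and with the score limit of 500, and at 8 with 1000, where Zfp42 has no peak. In number of peaks 7 loci exceeded 90% of windows, both of the median length and of their own length, and 6 did with either score limit. The 7 include Esrrb, whose window of 200.5 kb is not comparable with windows of the median length. Of windows of its own length, 2.16% held as many peaks. No paired analysis was possible because 1 library has values here. Absence of a peak is no evidence that Tdg was absent, since depth and threshold are unknown and no recovered peak had fewer than 21 reads.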
